A study of Mus musculus with 2 samples.

Results

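Integrins and laminins were followed in right atria of Shox2-/- and wildtype mouse embryos at E11.5, where the series asks which transcripts differ once the homeodomain factor Shox2 is lost. Members were the genes whose symbol reads Itga or Itgb with a number or letter, or Lama, Lamb or Lamc with a number, without the Itgb1bp and Itgbl genes, and 38 of the 21225 genes on the arrays were analysed under this rule. They are 27 integrin chains, 10 laminin chains and Itgb3bp, which the letters of the rule admit although it encodes a centromere protein and no integrin chain. The Shox2-/- array carried 1 RNA pool from embryos without functional Shox2 and the wildtype array 1 pool from WT embryos, both in the CD-1 outbred line, and each pool joined the right atria of 6 embryos from 2 pregnancies. The genotype is that of the whole embryo, with no deletion limited to a tissue named in the labels, and the dissected piece held the sinus venosus myocardium and the venous valves besides the atrium. Since each genotype was hybridized to a single array, replicates are lacking, and the values below carry no error, test or p-value and leave the spread between embryos unknown.

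Integrins are receptors of the cell surface made of an alpha and a beta chain, which hold cells to the extracellular matrix and tie that matrix to the actin skeleton through talin and kindlin. Laminins are trimers of an alpha, a beta and a gamma chain and form the sheet on which basement membranes are built, so that several integrins are receptors for them. In the embryonic heart such membranes lie beneath the endocardium, the epicardium and around the muscle cells. Chains of other integrins belong to blood cells, namely the alphaIIb and beta3 pair of megakaryocytes and platelets and the beta2 and beta7 families of leukocytes.

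Values are the deposited log2 signals of each gene, and every difference was taken as Shox2-/- minus wildtype. Probes of different genes are not comparable in brightness, so levels of different genes were not ranked. As a measure of background, 1294 genes of smell and pheromone receptors (Olfr and Vmn symbols) were used, whose 95th percentile was 6.97 on the Shox2-/- array and 6.78 on the wildtype array, and a gene above it on its own array is called above the receptor level. The size thresholds were those of the study's methods, 0.35 for higher and -0.4 for lower genes, without the probe-level significance it added. The targeted gene Shox2 stood at 7.48 on the Shox2-/- array and 8.43 on the wildtype array, a difference of -0.95. Its Shox2-/- value was 51.7% of the wildtype signal and still above the receptor level, and the source of this remaining signal was not tested. Muscle markers of the atrium were present on both arrays, where Myl7 had 12.80 on the Shox2-/- array and 12.75 on the wildtype array, and the 6 cardiomyocyte markers had a median difference of 0.02, from -0.12 for Nppa to 0.17 for Myh6.

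Most integrin and laminin genes had nearly the same signal in both genotypes, with a slight excess of positive differences, and a few integrin chains stood out as lower in Shox2-/- right atria. The lowest chain was Itga8, at 70.0% of the wildtype signal, and the next were Itga2b at 79.1% and Itgb3 at 80.4%, the chains of the platelet integrin. None of the 38 members reached 0.35, a threshold that 1.13% of all genes reached. At or below -0.4 lay 2 members, Itga8 and Itgb3bp, which is 5.26% of the members against 1.78% of all genes, and 1 of 37 when Itgb3bp is left out. The median difference was 0.08 for the integrin chains and 0.09 for the laminin chains, against 0.02 for all genes. Of the members, 29 of 38 had a difference above 0 (76.3%), against 54.9% of all genes. The 5th and 95th percentiles of all genes were -0.30 and 0.26, and 31 members lay between them, 4 below and 3 above. Those below were Itga8, Itgb3bp, Itga2b and Itgb3, and those above were Itgax (0.29), Itga7 (0.26) and Lamb3 (0.26), of which Itgax and Itga7 did not reach the receptor level on either array. In all, 31 members were above that level on both arrays, 1 on the wildtype array alone (Itgb3bp) and 6 on neither.

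**Figure D1:**
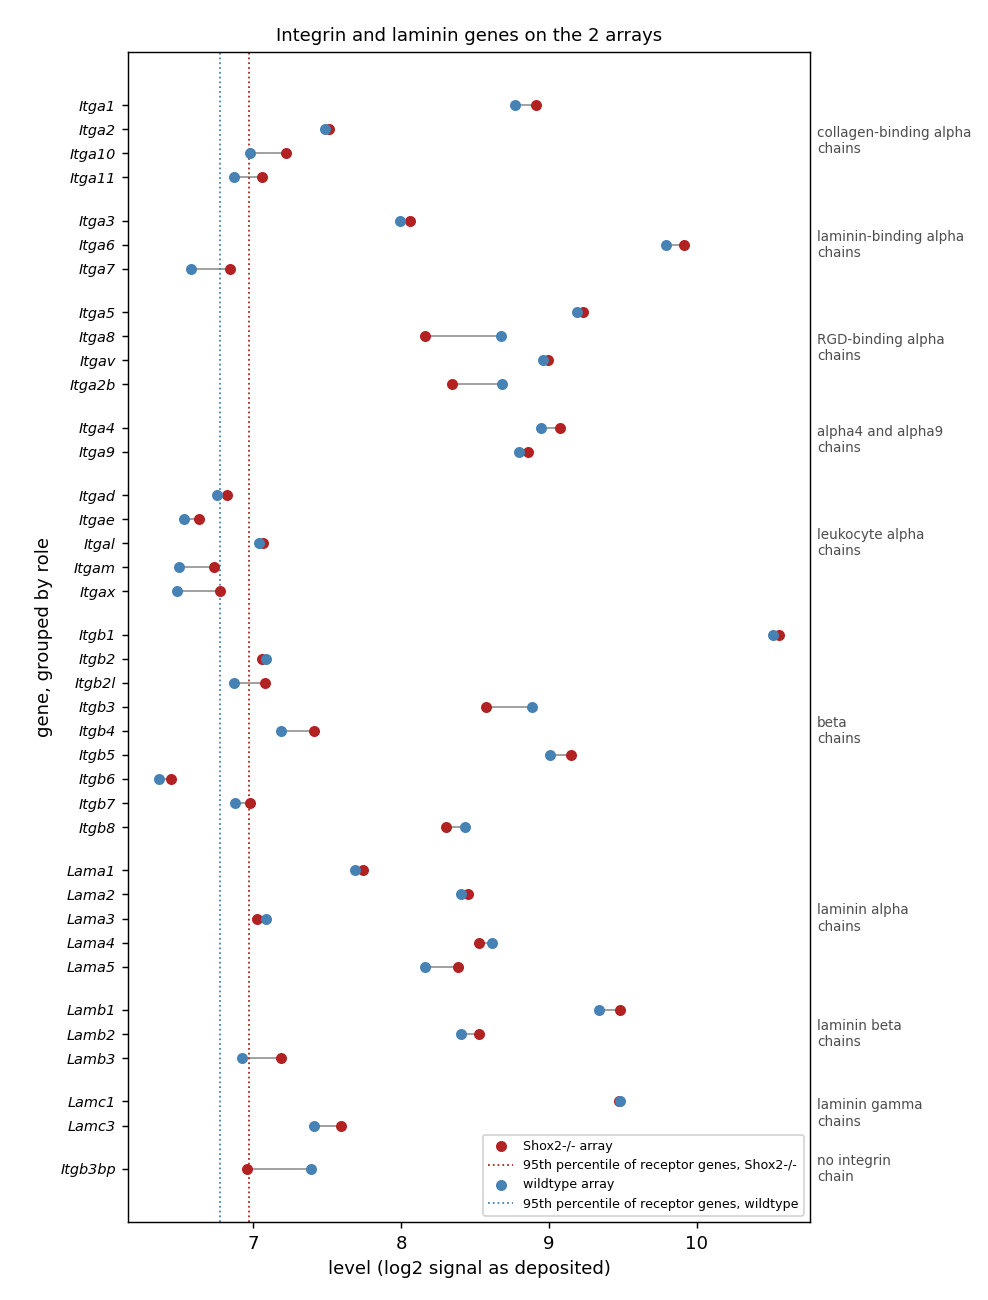
Level of each of the 38 genes on the Shox2-/- array (red) and the wildtype array (blue) as deposited log2 signal, 1 point for each array, grouped by role, with the 95th percentile of receptor genes of each array as a dotted line. The red point lies clearly left of the blue one for Itga8, Itga2b, Itgb3 and Itgb3bp, and 6 genes lie left of the line of their own array on both arrays.

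The difference between the arrays depended on the level of a gene. When all genes were sorted by mean level into 10 bins, the median difference over all genes was 0.12 in bin 3 and -0.09 in bin 9. Of the 38 members, 16 were below the median level of all genes, where their median difference was 0.15, and 22 above it, where it was 0.05. With this trend removed by a lowess fit over all genes, 25 members had a difference above 0 (65.8%), against 50.6% of all genes, and the medians were 0.11 for the integrin chains and 0.14 for the laminin chains. The same 2 genes remained at or below -0.4, with Itga8 at -0.45 and Itgb3bp at -0.51, against 1.50% of all genes. Among genes above the receptor level on 1 or both arrays 2.40% were at or below -0.4 as deposited. Itga8 was above that level on both arrays, but Itgb3bp passes this filter only through the wildtype array, where it is higher. Of the 31 members above the level on both arrays 1 was at or below -0.4, namely Itga8. Itga8 was also above the median level, where 2.80% of genes were at or below -0.4.

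**Figure D2:**
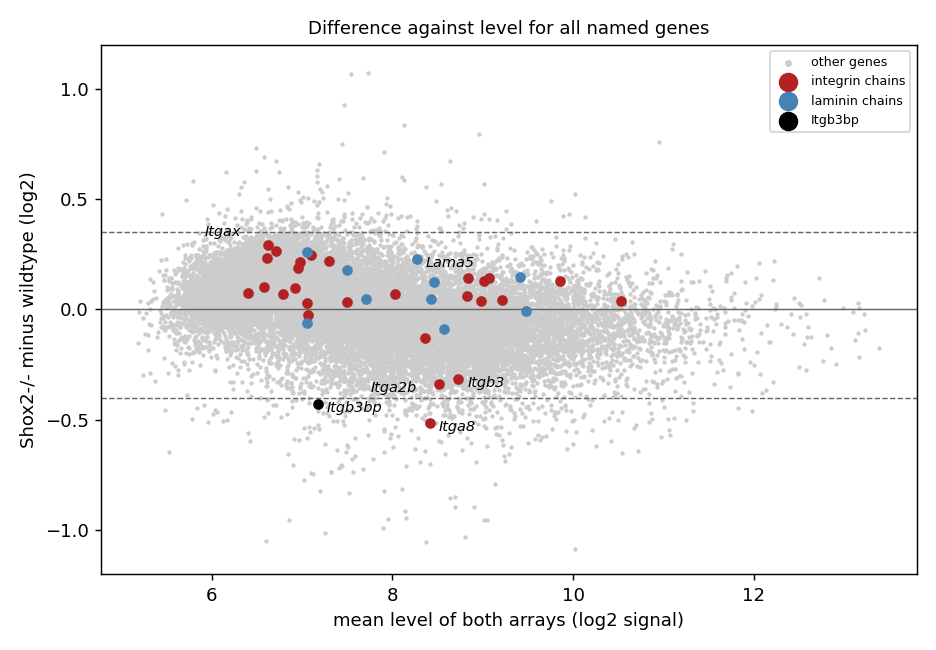
Difference (Shox2-/- minus wildtype, log2) against the mean level of both arrays for all genes with a symbol, with integrin chains in red, laminin chains in blue and Itgb3bp in black, and the size thresholds as dashed lines. Itga8 at -0.51 and Itgb3bp at -0.43 lie below the lower threshold and Itga2b at -0.34 and Itgb3 at -0.31 just above it, while no member crosses 0.35; the 9 genes beyond 1.2 in either direction lie outside the plot.

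Among the alpha chains that recognise the RGD sequence of fibronectin, vitronectin and related ligands, 2 were lower and 2 close to equal. Itga8 encodes the alpha8 chain, which pairs with beta1 and binds nephronectin, tenascin-C and fibronectin, and which the mouse kidney needs for its development. It had 8.16 on the Shox2-/- array and 8.67 on the wildtype array, a difference of -0.51, and was number 135 of 21225 genes counted from the lowest difference. Both values lay above the receptor level. Itga2b encodes the alphaIIb chain (CD41), the fibrinogen receptor chain of platelets, which also marks early blood progenitors in the mouse. It had 8.34 on the Shox2-/- array and 8.68 on the wildtype array, a difference of -0.34 at place 674. Itga5, the alpha5 chain of the main fibronectin receptor, had 9.23 on the Shox2-/- array and 9.19 on the wildtype array. Itgav, whose alphaV chain pairs with beta1, beta3, beta5, beta6 and beta8, had 8.99 on the Shox2-/- array and 8.96 on the wildtype array. The difference was 0.04 for each of these last 2 chains, so the lower signal of Itga8 and Itga2b was not shared by the group.

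The sequences upstream of the 2 lowest chains present in the RefSeq promoter table (GRCm38.p6) are shown because the study tested an AATT palindrome for binding by SHOX2 in gel shift assays. The sites it tested lie in intron 2 of the human ISL1 gene, whereas the windows shown here are mouse promoters. Each is the 250 bases before the start site, read 5′ to 3′ on the strand of the gene, with AATT in capitals. Itga8 lies on the minus strand, chr2:12301945-12302194, and Itga2b on the minus strand, chr11:102469884-102470133.
Itga8: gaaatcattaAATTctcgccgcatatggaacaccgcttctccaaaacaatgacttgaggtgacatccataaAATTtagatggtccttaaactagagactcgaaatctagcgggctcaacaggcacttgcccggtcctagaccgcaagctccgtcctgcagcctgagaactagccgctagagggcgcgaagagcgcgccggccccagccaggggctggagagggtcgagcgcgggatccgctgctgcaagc
Itga2b: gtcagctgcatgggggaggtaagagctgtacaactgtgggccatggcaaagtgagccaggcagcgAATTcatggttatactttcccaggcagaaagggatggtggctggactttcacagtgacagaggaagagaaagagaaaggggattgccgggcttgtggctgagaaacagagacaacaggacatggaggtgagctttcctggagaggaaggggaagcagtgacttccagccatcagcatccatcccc
AATT starts 240 and 179 bases before the start site of Itga8 and 185 bases before that of Itga2b. The letters are common, since 47.1% of 32851 promoter windows of this length held AATT. Of the members, 25 genes matched the table with 28 windows, and 12 of these windows (42.9%) held AATT. GATA, searched on both strands as GATA and TATC, was in neither window shown, and it occurred in 12 of the 28 members' windows (42.9%) and in 53.6% of all windows. A match is a description of the letters and does not show a binding site.

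The beta chains set these alpha chains in context, since each integrin needs both. Itgb1, whose beta1 chain is shared by the collagen, laminin and fibronectin receptors, had 10.56 on the Shox2-/- array and 10.52 on the wildtype array, a difference of 0.04. The partner of alpha8 therefore did not share the lower signal of Itga8, and the alpha8 minus beta1 gap between the 2 differences was -0.55. Itgb3, the beta3 chain of the platelet receptor and of the vitronectin receptor alphaVbeta3, had 8.57 on the Shox2-/- array and 8.89 on the wildtype array. Its difference of -0.31 was close to that of its platelet partner Itga2b and unlike the 0.04 of its other partner Itgav. Itgb8, which with alphaV releases active TGF-beta from its latent form, had 8.30 on the Shox2-/- array and 8.43 on the wildtype array, a difference of -0.13, and of -0.07 with the trend removed. Itgb5, a vitronectin receptor chain, had 9.15 on the Shox2-/- array and 9.00 on the wildtype array, and its difference was 0.14. Itgb4, the beta4 chain of hemidesmosomes in epithelia, had 7.41 on the Shox2-/- array and 7.19 on the wildtype array, and its difference was 0.22. Of the 9 beta chains 6 were above 0 as deposited and 4 with the trend removed, against 54.9% and 50.6% of all genes.

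Megakaryocyte and platelet genes were lower together with Itga2b and Itgb3. All 5 markers of these cells that were listed had a negative difference, 3 of them at or below -0.4, against 1.78% of all genes. Their median was -0.56, and the mean level was 8.99 on the Shox2-/- array and 9.44 on the wildtype array. The chemokine Pf4 was at -0.56, Ppbp at -0.57, and the von Willebrand receptor chains Gp9 at -0.56, Gp5 at -0.30 and Gp1bb at -0.24. Fermt3, the kindlin of blood cells that activates integrins of platelets and leukocytes, had 7.89 on the Shox2-/- array and 8.23 on the wildtype array, a difference of -0.35. All 5 markers were above the receptor level on both arrays. The 5 erythroid markers were all at or below -0.4, against 1.78% of all genes, with a median of -0.62. They were the globin gene Hbb-b1 at -1.52, Gata1 at -0.69, Rhag at -0.62, Klf1 at -0.49 and Epb42 at -0.49. In pooled tissue fewer cells of a type and less RNA per cell cannot be told apart, and the part of platelet cells in the values of Itga2b and Itgb3 was not tested.

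Leukocyte integrins were at or near background. The alpha chains Itgal (LFA-1, a receptor of ICAM proteins), Itgam (Mac-1), Itgax (CD11c), Itgad and Itgae all had a positive difference, between 0.03 and 0.29. Only Itgal exceeded the receptor level, with 7.07 on the Shox2-/- array and 7.04 on the wildtype array. Itgax had 6.77 on the Shox2-/- array and 6.48 on the wildtype array and Itgam had 6.73 on the Shox2-/- array and 6.50 on the wildtype array, so that their differences of 0.29 and 0.23 are between background signals. Itgad had 6.82 on the Shox2-/- array and 6.75 on the wildtype array, and Itgae had 6.63 on the Shox2-/- array and 6.53 on the wildtype array. The 1294 receptor genes themselves had a median difference of 0.12. With the trend removed 3 of the 5 alpha chains were below 0. Itgb2, the beta2 partner of 4 of these chains, had 7.06 on the Shox2-/- array and 7.08 on the wildtype array, a difference of -0.03, and its relative Itgb2l had 7.08 on the Shox2-/- array and 6.87 on the wildtype array. Itgb7, the partner of alphaE and alpha4 in lymphocytes, had 6.98 on the Shox2-/- array and 6.88 on the wildtype array, and the epithelial chain Itgb6 was below the receptor level on both arrays, with 6.44 on the Shox2-/- array and 6.36 on the wildtype array. The 9 macrophage and leukocyte markers had a median of -0.10, from -0.32 for Fcer1g to 0.06 for Spi1, and none was past a threshold.

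The alpha chains of collagen receptors all had a positive difference, 4 of 4 both as deposited and with the trend removed, against 54.9% and 50.6% of all genes, and that of Itga2 was close to the median of all genes. Itga1 had 8.91 on the Shox2-/- array and 8.77 on the wildtype array (0.14), and Itga2 had 7.51 on the Shox2-/- array and 7.48 on the wildtype array (0.03, or 0.01 with the trend removed). Itga10, a chain of cartilage, had 7.22 on the Shox2-/- array and 6.97 on the wildtype array (0.25), and Itga11, a chain of mesenchymal cells, had 7.06 on the Shox2-/- array and 6.87 on the wildtype array (0.19). For the last 2 chains, which lie near background, the differences were 0.16 and 0.09 with the trend removed. All 4 stayed below the threshold of 0.35.

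The laminin receptor chains had small positive differences as well. Itga6, whose alpha6 chain pairs with beta1 or beta4, had 9.92 on the Shox2-/- array and 9.79 on the wildtype array, a difference of 0.13. Itga3, a chain of epithelia, had 8.06 on the Shox2-/- array and 7.99 on the wildtype array. Itga7, the laminin receptor chain of muscle, had 6.84 on the Shox2-/- array and 6.58 on the wildtype array, below the receptor level on both, so that its 0.26 is again a difference between background signals. Itga4, whose alpha4beta1 integrin binds Vcam1 and fibronectin and holds the epicardium to the heart in the mouse, had 9.08 on the Shox2-/- array and 8.95 on the wildtype array. Itga9, a tenascin-C receptor chain, had 8.86 on the Shox2-/- array and 8.80 on the wildtype array. Vcam1, the ligand of alpha4, had a difference of 0.10, beside 0.13 for Itga4, and the 7 epicardial and mesothelial markers had a median of 0.18, with Krt19 at 0.45 past the threshold.

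**Figure D3:**
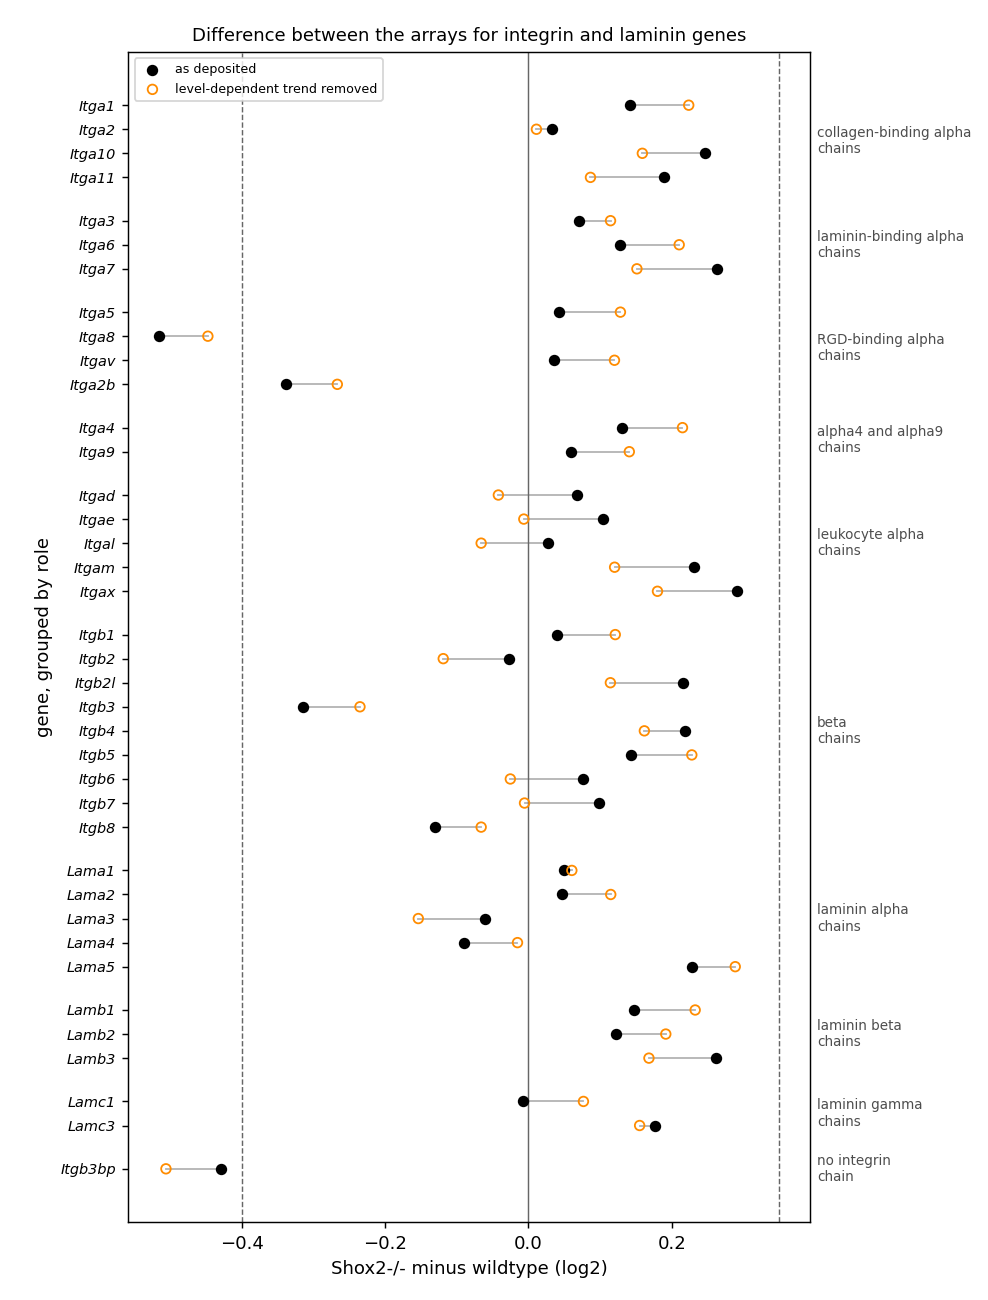
Difference (Shox2-/- minus wildtype, log2) of each of the 38 genes as deposited (filled) and with the level-dependent trend removed (open), with dashed lines at 0.35 and -0.4. Itga8 and Itgb3bp lie beyond the lower line both ways, and of the 29 genes above 0 as deposited 5 lie below 0 with the trend removed.

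Laminin chains differed by no more than 0.26 in either direction, and none was past a threshold. The trunk chains shared by most laminins were Lamb1, with 9.48 on the Shox2-/- array and 9.33 on the wildtype array, and Lamc1, with 9.48 on both arrays. Their differences of 0.15 and -0.01 had opposite signs, but both were positive after removal of the trend (0.23 and 0.08). Of the alpha chains, which set the type of laminin, Lama5, widespread beneath epithelia and vessels, had the largest difference, with 8.39 on the Shox2-/- array and 8.16 on the wildtype array (0.23, or 0.29 with the trend removed). Lama4, the laminin chain of vessels, had 8.53 on the Shox2-/- array and 8.62 on the wildtype array (-0.09). Lama2, the chain of muscle, had 8.45 on the Shox2-/- array and 8.40 on the wildtype array, and Lama1, the chain of the early embryo, had 7.74 on the Shox2-/- array and 7.69 on the wildtype array. Lama4 and Lama5 thus differed in sign, beside 8 endothelial and endocardial markers with a median of 0.04, from -0.17 for Emcn to 0.18 for Npr3. Lamb2, a chain of the neuromuscular junction and the kidney filter, had 8.53 on the Shox2-/- array and 8.40 on the wildtype array, and Lamc3 had 7.59 on the Shox2-/- array and 7.41 on the wildtype array.

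Lama3 and Lamb3, chains of epithelial basement membranes, lay close to background. Lama3 had 7.02 on the Shox2-/- array and 7.08 on the wildtype array, and Lamb3 had 7.19 on the Shox2-/- array and 6.93 on the wildtype array. Their differences of -0.06 and 0.26 had opposite signs. Itgb4, a laminin receptor chain of epithelia, had its 0.22 at a level below the median of all genes.

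Itgb3bp, a centromere and nuclear receptor cofactor gene named after a reported contact with beta3, had 6.96 on the Shox2-/- array and 7.39 on the wildtype array, a difference of -0.43, and its Shox2-/- value lay just below the receptor level.

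The ligands of these receptors held the largest differences of the pathway. Of 24 other integrin ligands, 2 were at or above 0.35 and 4 at or below -0.4, against 1.13% and 1.78% of all genes. Their median was -0.0078. Without the plasma proteins Vtn, Fga, Fgb and Fgg, 20 ligands remained. Of these, 2 were at or above 0.35 and 1 at or below -0.4, and the median was 0.06. Tnc (tenascin-C), a matrix ligand of alpha8 and alpha9, had 9.30 on the Shox2-/- array and 8.73 on the wildtype array, a difference of 0.57, and Ccn1 (Cyr61), a matricellular ligand of alphaV integrins, had 8.96 on the Shox2-/- array and 8.59 on the wildtype array, a difference of 0.37. Thbs1 (thrombospondin-1) had 9.70 on the Shox2-/- array and 10.31 on the wildtype array, a difference of -0.61. The remaining lower ligands are plasma proteins, the fibrinogen chains Fgg (-1.02) and Fgb (-0.99) and vitronectin Vtn (-0.68), and the third fibrinogen chain Fga was at -0.38. On the Shox2-/- array Fgg (6.74) and Fga (6.71) did not reach the receptor level, so that the size of their differences is limited by background there. All 6 hepatocyte markers, of which Fgb is 1, were at or below -0.4 with a median of -1.10, and the mean level was 7.95 on the Shox2-/- array and 9.21 on the wildtype array. The plasma proteins Alb, Afp, Apoa1 and Ttr were at -1.50, -1.22, -0.85 and -0.81, and Serpina1a, at -2.24, had 5.86 on the Shox2-/- array, below the receptor level. The part of hepatocytes in the values of the plasma ligands was not tested. Fibronectin (Fn1) had 11.78 on the Shox2-/- array and 11.72 on the wildtype array, and nephronectin (Npnt), the kidney ligand of alpha8, had 8.82 on the Shox2-/- array and 8.90 on the wildtype array. Of the ligands of alpha8, Tnc was thus higher by 0.57, while Npnt (-0.08, or -0.0007 with the trend removed) and Fn1 (0.06) were close to equal. The plasma protein Vtn, an RGD ligand, was lower at -0.68.

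Most markers of lung and foregut epithelium had lower values in Shox2-/- right atria as well. Of the 9 markers 7 were below 0 and 2 above, Cdh1 at 0.11 and Krt18 at 0.09, and the median was -0.33, with a mean level of 7.72 on the Shox2-/- array and 8.01 on the wildtype array. At or below -0.4 were 4 of them, against 1.78% of all genes, namely Cldn6 at -0.71, Foxa1 at -0.64, Nkx2-1 at -0.41 and Sox2 at -0.40. Of these, Sox2 had 6.87 on the Shox2-/- array and did not reach the receptor level there. Epcam was at -0.33, Foxa2 at -0.28 and Krt8 at -0.12. Smooth muscle is a cell type in which alpha8 is known. Of its 4 markers, Myh11 was at -0.34, Acta2 at 0.03, Cnn1 at 0.18 and Tagln at 0.21. The part of any of these cells in the value of Itga8 was not tested.

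The basement membrane partners differed little and mostly in 1 direction. Of 21 genes 19 had a difference above 0 (18 with the trend removed), against 54.9% and 50.6% of all genes. None was past a threshold. The median was 0.08 (0.13 with the trend removed), against 0.02 (0.0018) for all genes. Nid1 and Nid2, the nidogens that bridge laminin to collagen IV, were at 0.07 and 0.09, perlecan (Hspg2) at 0.09 and agrin (Agrn) at 0.06. The largest differences were those of Col4a3 (0.28), Fbln2 (0.24) and Col4a2 (0.19). Of the 13 other laminin receptors and their partners 1 was past a threshold, at or below -0.4, against 1.78% of all genes. It was the syndecan Sdc2, with 8.43 on the Shox2-/- array and 8.92 on the wildtype array (-0.48), while Sdc4 was at 0.23. Dystroglycan (Dag1), the main laminin receptor beside integrins, had 9.77 on the Shox2-/- array and 9.70 on the wildtype array, and the median of the list was -0.01.

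The proteins that bind integrins inside the cell differed by less than the thresholds. Of 31 adaptors and regulators none was past one. Above 0 were 22, both as deposited and with the trend removed, against 54.9% and 50.6% of all genes. The median was 0.09, or 0.16 with the trend removed, against 0.02 and 0.0018 for all genes. Talin (Tln1) was at 0.06, integrin-linked kinase (Ilk) at 0.08, vinculin (Vcl) at -0.03 and Fermt2, the kindlin of muscle and mesenchyme, at 0.11. The largest differences were those of Fermt3 (-0.35), Lims2 (0.31) and Tgfb1i1 (0.24), of which Lims2 encodes a partner of integrin-linked kinase and Tgfb1i1 the focal adhesion protein Hic-5. The kindlin of blood cells and that of muscle thus differed in sign, although the 0.11 of Fermt2 is small. The part of blood cells in the value of Fermt3 was not tested.

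**Figure D4:**
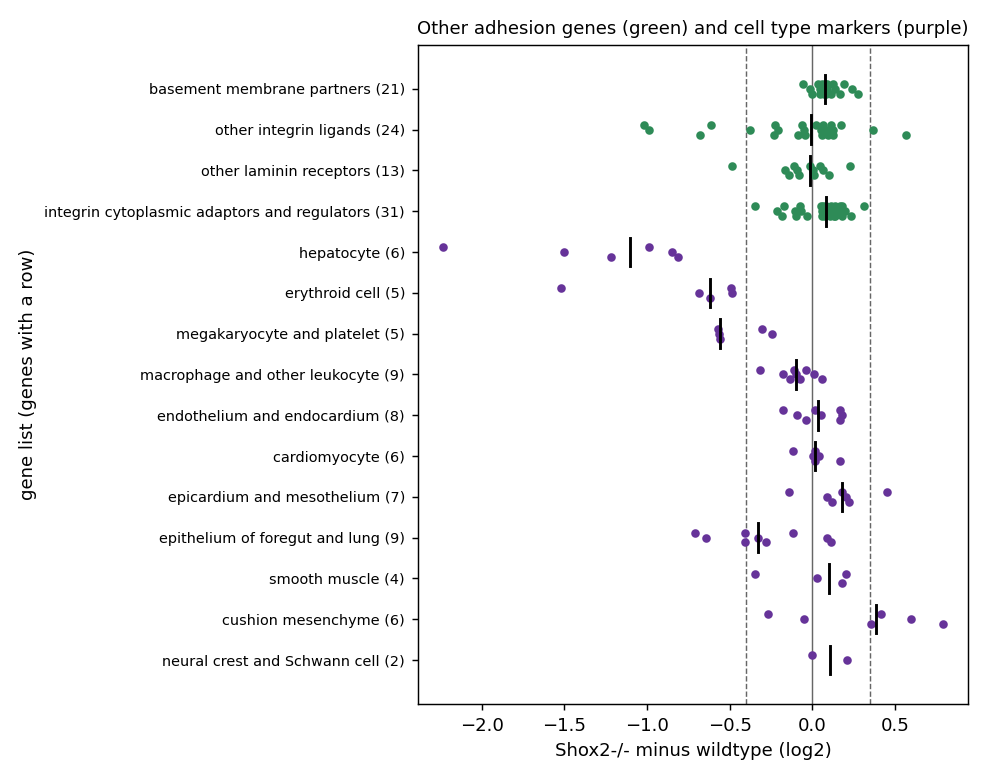
Difference (Shox2-/- minus wildtype, log2) of each gene of 4 lists of other adhesion genes (green) and 11 lists of cell type markers (purple), with the median of each list as a black bar, the number of genes in brackets and dashed lines at 0.35 and -0.4. Hepatocyte, erythroid and platelet markers lie left of 0 without exception, and basement membrane partners lie close to 0.

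Lists of further cell types of the pool are given for the same check of its makeup. The neural crest markers Sox10 and Foxd3 were at 0.0015 and 0.21. Of the 6 markers of cushion mesenchyme 4 were at or above 0.35, against 1.13% of all genes. These were Prrx1 (0.80), Msx2 (0.60), Twist1 (0.42) and Scx (0.35), while Sox9 was at -0.27 and Postn at -0.05. The median was 0.39, with a mean level of 8.81 on the Shox2-/- array and 8.50 on the wildtype array. Whether a mesenchymal share of the pools bears on Tnc or on the small positive differences of the matrix genes was not tested.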

How the data were processed

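Right atria of E11.5 embryos were measured on GeneChip Mouse Gene 1.0 ST arrays, 1 for each genotype, with 200 ng of pooled RNA. The deposited log2 values were made by the authors, who took logs of the perfect-match signals, quantile normalized them, and summarised them by a log-linear model of probe and genotype (JMP Genomics 4.0) under Entrez gene definitions of a custom CDF, version 14. The log base was read from the range of 5.09 to 13.6, and neither a background correction nor a genome build is given in the sources used here. Quantile normalization gives both arrays nearly the same distribution of probe signals, so a shift shared by most genes would not be seen.

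Of all rows, 20239 had a symbol in the platform annotation, updated by Entrez identifier through RefSeq (GRCm38.p6), and 986 were counted without a name, so that some genes of the families and lists are not reported here. The members and gene lists were chosen with earlier results of these data known. All members were named, and from other lists those past a threshold or with the largest differences, beside a few examples chosen after their values were seen. The level-dependent trend was a lowess fit (span 0.3, 3 iterations), tested on simulated data. Alternatives were centring on array medians, removal of the trend, a threshold of 0.4 in each direction and a 2-fold change. Further alternatives were restriction to genes above the receptor level on 1 or both arrays and to genes above the median level. Python 3.11.15, numpy 2.4.6, pandas 2.3.3, statsmodels 0.14.6 and matplotlib 3.10.9 were used.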

Additional observations from a re-analysis of the deposited data

How the results depend on the processing

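The number of members at or above 0.35 was 0 under each of the 6 alternatives. The number at or below -0.4 was 2 as deposited, with centred arrays, with the trend removed and at 0.4 both ways. It was also 2 among members above the receptor level on 1 or both arrays, a filter that Itgb3bp passes through the wildtype array alone. Among the 31 members above that level on both arrays the number was 1. It was 1 among members above the median level, where Itgb3bp is not included, 1 with Itgb3bp left out, an alternative chosen after seeing the data, and 0 for a 2-fold change. The median of the integrin chains lay between 0.04 and 0.11 and that of the laminin chains between 0.08 and 0.14 under 4 alternatives each. Of the 89 other adhesion genes 7 were past a threshold as deposited and 8 with the trend removed. As deposited 2 were at or above 0.35 and 5 at or below -0.4, against 1.13% and 1.78% of all genes. With the trend removed these were 2 and 6, against 202 and 318 of the 21225 genes. Centring moved none of the 38 single differences by more than 0.1, and removing the trend moved 9 of them by more and none of those was Itga8, Itga2b or Itgb3. No paired analysis was possible because the genotypes have a single array each, which also leaves no replicate to omit. Signal near background limits the 6 members below the receptor level on both arrays.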
